A study of Danio rerio with 4 samples.

Results

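The RNA make-up of the pre-vitellogenic ovarian follicle of the zebrafish was described through its 200 most abundant protein-coding genes, of 29458 genes in the mRNA table, and its 20 most abundant miRNAs, of 118 listed. The members were chosen by their level in the pre-vitellogenic libraries alone: transcripts were summed by gene name, genes without a name were kept by Ensembl gene ID, and a gene needed a protein-coding transcript and an FPKM-weighted length of at least 300 bases. Levels that chose the members are given as a description, with no test. The study set pre-vitellogenic follicles against primary growth follicles of the AB strain at 3 months of age, with no mutation or treatment named in the labels, sorted by size and appearance from dissected ovaries. Each stage gave 1 mRNA library and 1 small RNA library, so no difference has a replicate check and no p-value is given. All 4 sample titles read PG, and the cell type labels, which separate the stages, were followed. The sources used here do not say whether fish were pooled.

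A fish follicle is an oocyte wrapped in follicle cells. During primary growth the oocyte makes and stores RNA, ribosomes and mitochondria, and its germ plasm gathers in the Balbiani body. The pre-vitellogenic stage is the start of secondary growth, in which cortical alveoli form and the egg envelope thickens before yolk is taken up. Maternal mRNAs such as those of cyclins are stored in a masked form for maturation and for the early embryo. A miRNA guides an Argonaute protein to mRNAs mainly through its seed, bases 2 to 8 from the 5′ end, so miRNAs with the same seed are grouped as a family.

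The miRNAs that carried most of the reads are shown first, as the mature sequences of the deposited table written 5′ to 3′ in DNA letters, with the seed in capitals. The set holds the 6 most abundant miRNAs and the partners that share a seed with another of the 20.
miR-22a-3p: aAGCTGCCagctgaagaactgt
let-7a: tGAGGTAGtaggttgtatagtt
let-7e: tGAGGTAGtagattgaatagtt
miR-100-5p: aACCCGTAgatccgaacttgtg
miR-99: aACCCGTAgatccgatcttgtg
miR-143: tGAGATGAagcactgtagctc
miR-21: tAGCTTATcagactggtgttggc
miR-202-5p: tTCCTATGcatatacctctttg
miR-146a: tGAGAACTgaattccatagatgg
miR-146b: tGAGAACTgaattccaagggtg
The 20 miRNAs had 17 distinct seeds, of 78 among all listed, and only the let-7, miR-99/100 and miR-146 families had a pair of members among them. Counted from 1 at the 5′ end, let-7e differed from let-7a by G12A and T16A, and miR-99 from miR-100-5p by A16T. Over the length they share, miR-146b differed from miR-146a by T17A, A18G and A20G. Their lengths were 21 to 23 bases, their GC content lay between 31.8% and 54.5%, and 15 of the 20 (75.0%) began with T, against 64.4% of all 118 listed. With 1 or a few changes between relatives, the split of reads within a family depends on how reads were mapped, and no source used here states that.

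The 20 miRNAs held 93.1% of the listed miRNA reads in pre-vitellogenic follicles (95% Wilson interval 93.1% to 93.2%, counting error only) and 92.6% in primary growth follicles. The most abundant 3 held 51.8% of the pre-vitellogenic reads, and the most abundant 3 of primary growth held 49.7% of its reads. The listed miRNAs took 3.18% of the pre-vitellogenic library total of 19043107 reads and 0.460% of the primary growth total of 13147324. In RPM, reads scaled to these library totals, the sum over listed miRNAs was thus 6.92 times as high in pre-vitellogenic follicles, so a level in RPM and a share of the listed reads say different things. What the remaining reads are was not analysed here.

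On the RPM scale all 20 miRNAs were higher in pre-vitellogenic follicles, 18 of them by at least 2-fold and none lower by 2-fold. Of the 27 listed miRNAs with at least 100 RPM in the higher library, 92.6% passed the same mark and 0% passed it downward, so this count does not set the 20 apart. As shares of the listed reads, 9 of the 20 were higher and 9 lower with 95% intervals apart, and 2 had overlapping intervals. These intervals cover counting error only. The same count was not made over all 118 listed miRNAs, so it is not read as a trait of the 20. Both directions also occurred below the 20. let-7i held 0.592% (0.573% to 0.612%) of pre-vitellogenic and 0.066% (0.049% to 0.090%) of primary growth reads. For miR-204-5p the shares were 0.293% (0.280% to 0.307%) and 0.670% (0.608% to 0.738%). The 9 with a higher share were miR-22a-3p, let-7a, miR-143, miR-21, miR-202-5p, miR-218a, let-7e, miR-23a-3p and miR-24.

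miR-22a-3p was first in both libraries, with 7340 RPM in pre-vitellogenic and 865 RPM in primary growth follicles. Its share of the listed reads was 23.1% (22.9% to 23.2%) against 18.8% (18.5% to 19.1%). let-7a, of the family first known for timing development in the worm Caenorhabditis elegans, had 5939 RPM in pre-vitellogenic and 301.4 RPM in primary growth follicles, a ratio of 19.7 (19.1 to 20.3, exact interval, counting error only). let-7e had 509 RPM and 20.7 RPM, ranked 14 and 22. Together the 10 listed miRNAs with the let-7 seed held 22.8% of pre-vitellogenic and 7.69% of primary growth reads. The next miRNAs below the 20 also carried this seed: let-7i at 188.5 RPM against 3.04 RPM, let-7d-5p at 134 RPM against 5.63 RPM, and let-7g at 123.5 RPM against 6.54 RPM. The 20th member, miR-101a, stood just above them at 194.5 RPM in pre-vitellogenic and 35.8 RPM in primary growth follicles.

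The miR-99/100 family stood the other way as a share. miR-100-5p had 3210 RPM in pre-vitellogenic and 851 RPM in primary growth follicles, and miR-99 had 1026 RPM and 165 RPM. The seed they share held 13.3% of pre-vitellogenic reads against 22.1% of primary growth reads. In vertebrates miR-100, let-7 and miR-125 genes lie in shared clusters, and miR-125b-5p, with 198 RPM in pre-vitellogenic and 46.1 RPM in primary growth follicles, was also higher in RPM and lower as a share. The miR-146 pair, known in mammals for its part in immune responses, was slightly lower as a share. Its seed held 3.39% (3.34% to 3.43%) of pre-vitellogenic and 3.87% (3.72% to 4.03%) of primary growth reads. miR-146a had 787 RPM against 137 RPM, and miR-146b had 293 RPM against 40.8 RPM.

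Several abundant members had no relative with the same seed in the table. miR-143, expressed in smooth muscle and in ovarian granulosa cells of mammals, had 2596 RPM in pre-vitellogenic and 186 RPM in primary growth follicles. miR-21 had 1494 RPM in pre-vitellogenic and 157 RPM in primary growth follicles. miR-202-5p, known in fish as a gonad miRNA, had 1347 RPM in pre-vitellogenic and 62.4 RPM in primary growth follicles, a ratio of 21.6 (20.1 to 23.2). miR-218a, at 510 RPM against 23.3 RPM, had a ratio of 21.9. These 4 each held a larger share of the listed reads in the pre-vitellogenic library.

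3 of the 20 were outside the 20 most abundant of primary growth, where 83.1% of all listed miRNAs are: let-7e, miR-23a-3p and miR-24. miR-23a-3p had the largest ratio of the 20, 59.7 (48.7 to 74.1), with 423 RPM from 8046 reads in pre-vitellogenic follicles and 7.07 RPM from 93 reads in primary growth follicles. miR-24, which is made from the same vertebrate clusters as miR-23, had 284 RPM in pre-vitellogenic and 13.3 RPM in primary growth follicles. Their places in the primary growth list were held by miR-125a, miR-204-5p and miR-7a.

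The smallest ratios belonged to miR-9-5p, at 266 RPM in pre-vitellogenic and 179 RPM in primary growth follicles, and to miR-20a-5p, at 919 RPM and 570 RPM. miR-20a-5p ranked 8 in pre-vitellogenic follicles with 2.89% of the listed reads and 3 in primary growth follicles with 12.4%. miR-92a-3p, from the same vertebrate cluster as miR-20a, had 709 RPM against 232 RPM, and its share was 2.23% against 5.05%. miR-26a-5p had 819 RPM against 255 RPM, with shares of 2.57% and 5.54%. miR-181a-5p had 787 RPM against 113 RPM and nearly equal shares, 2.47% and 2.45%. Setting both libraries to the same sum over listed miRNAs left 6 of the 20 at least 2-fold higher and put 4 at least 2-fold lower.

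**Figure D1:**
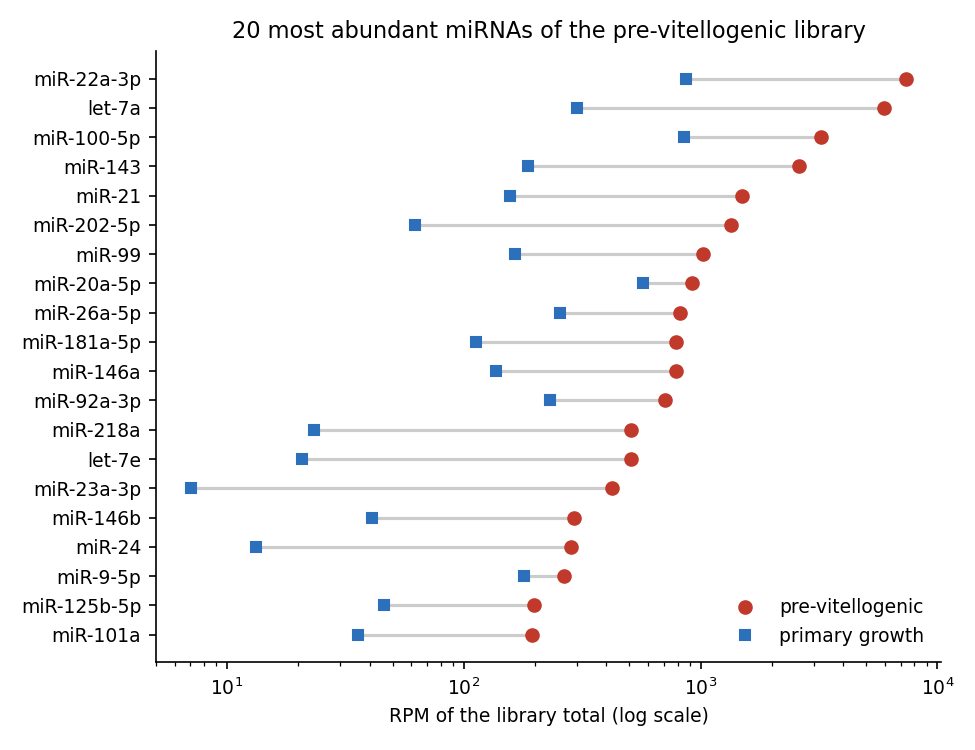
Levels of the 20 most abundant miRNAs of the pre-vitellogenic library in RPM of the library total, on a log axis, with red circles for pre-vitellogenic and blue squares for primary growth follicles, 1 library each. Every circle lies right of its square, by ratios between 1.49 for miR-9-5p and 59.7 for miR-23a-3p.

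In the mRNA table a level was given in FPKM, a fragment number scaled to transcript length and to the mapped fragments of the library, so levels of different genes can be set side by side. The number of mapped fragments is not known from the table. The 200 genes held 24.5% of the summed FPKM of the pre-vitellogenic library, and the same genes held 38.4% of the sum of primary growth. The 200 most abundant genes of primary growth held 41.3% of their own library. At every length compared the pre-vitellogenic library was less concentrated: the first 20 genes held 6.35% against 10.5%, and the first 1000 held 47.1% against 66.0%. It took 905 genes of any kind to reach 50% of the sum in pre-vitellogenic follicles and 306 in primary growth follicles. In bulk follicles, fewer cells of a type and less RNA per cell cannot be told apart.

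**Figure D2:**
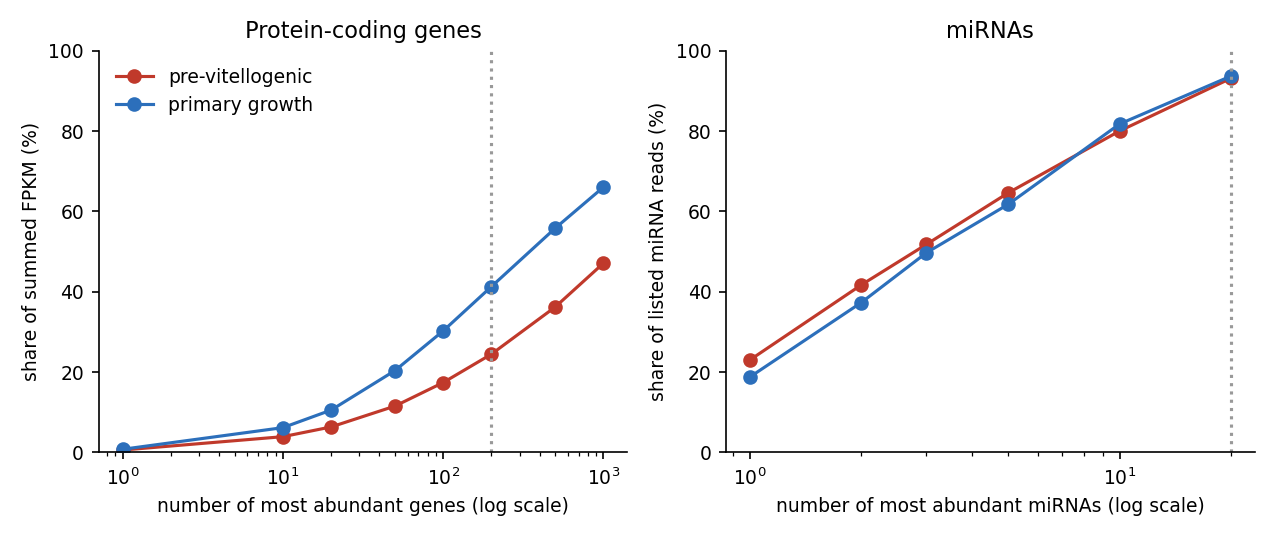
Share of the summed FPKM held by the most abundant protein-coding genes (left) and share of listed miRNA reads held by the most abundant miRNAs (right), each ranked within its own library, against the number of features on a log axis, with dotted lines at 200 genes and 20 miRNAs. The pre-vitellogenic curve runs below that of primary growth for genes, 24.5% against 41.3% at 200, while for miRNAs the curves end close together, at 93.1% and 93.7%.

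Oocyte markers and markers of other cells bear on what the library holds. Of 9 oocyte markers 8 were at 1 FPKM or more in pre-vitellogenic follicles, and 4 were members: the linker histone gene h1m, buc, zp3b and zar1. The exception, figla, stood at 0.190 FPKM in pre-vitellogenic and 0.441 FPKM in primary growth follicles. The 9 granulosa and theca markers ranged from 0.150 FPKM to 7.31 FPKM and summed to 20.8 FPKM in pre-vitellogenic and 2.92 FPKM in primary growth follicles. The 6 smooth muscle markers summed to 38.7 FPKM against 10.2 FPKM, the 5 endothelial ones to 8.09 FPKM against 2.79 FPKM, the 4 of leukocytes to 2.98 FPKM against 3.62 FPKM and the 5 of liver to 1.48 FPKM against 2.24 FPKM. The 3 erythrocyte genes summed to 52.7 FPKM against 55.2 FPKM. The liver genes vtg1, vtg2 and fabp10a were listed at 0 in both libraries, and the follicle cell genes fshr and nr5a1a were listed at 0 in primary growth follicles only. The part of follicle cells or of other cells in the differences given here was not tested.

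Of the 200 genes, 28 had a higher and 172 a lower FPKM in pre-vitellogenic than in primary growth follicles. At the 2-fold mark on the log2(FPKM + 1) scale 14 members were higher, where 29.1% of the 14480 genes with at least 1 FPKM in either library were, and 99 were lower, where 6.53% were. Counts for single role lists below are to be read beside these. The median difference of the members was -0.995, while over the 12022 genes that reached 1 FPKM in both libraries it was 0.42. With both libraries set to the same summed FPKM, 15 members were higher and 58 lower by 2-fold, and with differences centred on the median of all genes 12 were higher and 141 lower.

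157 of the 200 were also among the 200 most abundant genes of primary growth, and 43 were not, where 98.5% of all ranked genes at 1 FPKM or more are outside that list. Of the 43, 10 were encoded by mitochondrial DNA and 33 by the nucleus. The rank-200 level was 349 FPKM in pre-vitellogenic and 587 FPKM in primary growth follicles, so a nuclear gene could enter the list with a lower FPKM than it had in primary growth: 19 of the 33 did. 22 of the 33 lay within the first 300 ranks of primary growth, and the farthest, cdc25, at rank 573. Of the 20 most abundant genes, 9 were among the first 20 of primary growth and 7 were mitochondrially encoded.

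**Figure D3:**
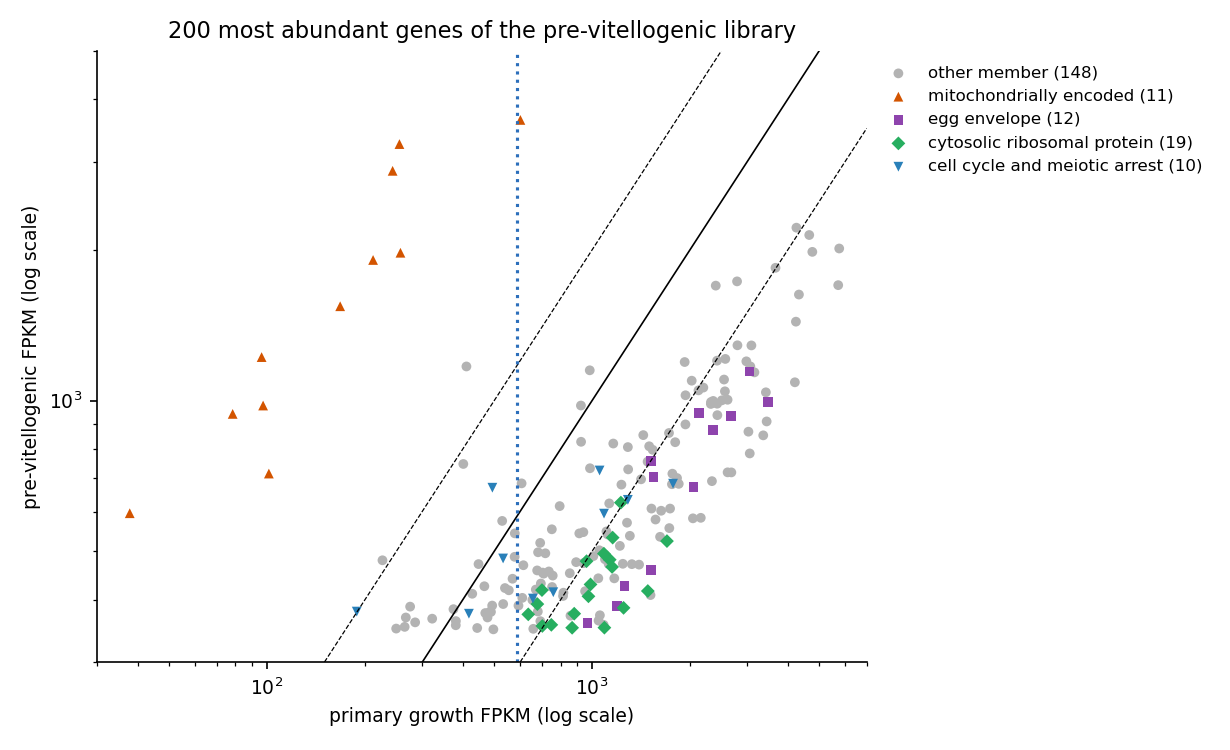
FPKM of the 200 genes in pre-vitellogenic (vertical) against primary growth follicles (horizontal), both on log axes, with the line of equality, dashed lines at 2-fold and a dotted line at 587 FPKM, the rank-200 level of primary growth. The 11 mitochondrially encoded genes lie above the upper dashed line, the 12 egg envelope genes lie below the lower one, and the 43 genes left of the dotted line are those outside the primary growth list.

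Genes of the mitochondrial DNA, which codes for core subunits of the respiratory chain and ATP synthase, led the list. 11 of its 13 protein-coding genes were members, and the other two, mt-atp8 and mt-nd4l, were under the length floor. mt-co1, a cytochrome c oxidase subunit at positions 6425 to 7975 of the mitochondrial DNA (Zv9 build), was the most abundant gene of the list, with 3638 FPKM in pre-vitellogenic and 602 FPKM in primary growth follicles. It was the only one of the 11 inside the primary growth list, at rank 197. mt-nd6 had 3255 FPKM in pre-vitellogenic and 256 FPKM in primary growth follicles, and mt-atp6 had 2878 FPKM and 244 FPKM. The other members were mt-co2, mt-cyb, mt-co3, mt-nd4, mt-nd2, mt-nd1, mt-nd3 and mt-nd5, from 1975 FPKM down to 596 FPKM. The ratios of the 11 ran from 6.04 for mt-co1 to 15.8 for mt-nd5, which had 596 FPKM against 37.8 FPKM. Together they held 3.23% of the pre-vitellogenic and 0.294% of the primary growth sum. Some entries not marked protein-coding, and so no members, stood the same way. On the mitochondrial DNA AC024175.4 had 1851 FPKM against 129 FPKM and AC024175.17 had 570 FPKM against 101 FPKM. The nuclear 5_8S_rRNA, a ribosomal RNA name, had 753 FPKM against 32.8 FPKM. CU280887.1 had 502 FPKM against 0 FPKM and si:dkeyp-20e4.9 had 625 FPKM against 492 FPKM. Both, like 5_8S_rRNA, had lower bounds of 0 in both libraries, and AC024175.4 had a lower bound of 0 in the pre-vitellogenic library. Other such entries were lower in pre-vitellogenic follicles: si:dkeyp-98a7.2 (1280 FPKM against 3936 FPKM), BX571823.5 (674 FPKM against 1522 FPKM), si:dkey-151g10.6 (538 FPKM against 1391.5 FPKM) and Metazoa_SRP (353 FPKM against 2259 FPKM). The most abundant Metazoa_SRP transcript had a lower bound of 0 in both libraries. Whether RNA selection or RNA quality differed between the libraries was not tested. mt-nd6 and mt-nd5 overlap in their annotated ends, and no source used here gives the strand setting of the library, so reads near that end cannot be assigned with certainty.

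Among nuclear subunits of the respiratory chain and ATP synthase no member passed the 2-fold mark. The 4 members, cox6c, atp5o, COX5B (2 of 3) and atpif1a, an inhibitor of the ATP synthase, had a median difference of -0.69. atpif1a had 616 FPKM in pre-vitellogenic and 795 FPKM in primary growth follicles, and cox6c had 456 FPKM and 736 FPKM. The whole list of 104 nuclear genes summed to 1.56% of the pre-vitellogenic and 1.92% of the primary growth FPKM. Of the 91 mitochondrial ribosomal protein genes none was a member, and their sum was 0.730% against 0.788%.

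Egg envelope genes, which code for zona pellucida proteins of the coat around the oocyte, made up 12 of the 200, of 23 in the table. In pre-vitellogenic follicles all 12 were lower by at least 2-fold. At the same mark 99 of all 200 members were lower, and 6.53% of the 14480 genes compared. The 12 held 1.42% of the pre-vitellogenic and 3.25% of the primary growth sum. The most abundant was zgc:171779, now named zp3e, on chromosome 3, with 1144 FPKM in pre-vitellogenic and 3053 FPKM in primary growth follicles. zp3.2 had 993 FPKM against 3478 FPKM, the largest ratio of the 12. ZP2 (3 of 4), now zpax4, had 945 FPKM against 2134 FPKM, and zp2.2 had 933 FPKM against 2672 FPKM. zp2l1 stood at the 2-fold mark itself, with 758 FPKM against 1519 FPKM. The primary growth value of zp3a.1, 2355 FPKM against 873 FPKM in pre-vitellogenic follicles, rests wholly on rows that the table marks as failed estimates, so its call is uncertain, and without it the count is 11 of 11. 1 further egg envelope gene, zp2.3, was in the primary growth list only, at 193 FPKM in pre-vitellogenic and 638 FPKM in primary growth follicles. The same 12 genes were still lower under each scaling tried, 9 of them by 2-fold with both libraries set to the same sum.

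Genes of the maternal mRNA store were 5 of the 200. zar1l had 476 FPKM in pre-vitellogenic and 893 FPKM in primary growth follicles, and its relative zar1, an oocyte RNA-binding protein, had 357 FPKM and 1086 FPKM. btg4, an adaptor for the deadenylation of maternal mRNA in the mouse, had 471 FPKM against 1326 FPKM. cpeb1b, which binds the cytoplasmic polyadenylation element, had 441 FPKM against 569 FPKM and entered the list from rank 207. rbpms2b, an RNA-binding protein of the ovary, had 379 FPKM against 485 FPKM. Both btg4 and zar1 were lower by at least 2-fold, and the other three were between the marks. cpeb1b and rbpms2b lie side by side on chromosome 7, from 49697695 to 49720621.

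Of the germ plasm genes ca15b, a carbonic anhydrase of the germ line, had 1171 FPKM in pre-vitellogenic and 3069 FPKM in primary growth follicles. buc, which organises the Balbiani body, had 496 FPKM against 718 FPKM and ranked 115 and 158. The germ cell helicase gene vasa lay outside the 200, with 174 FPKM in pre-vitellogenic and 79.4 FPKM in primary growth follicles. The oocyte growth factor genes bmp15 and gdf9 were also outside, at 114 FPKM against 117 FPKM and at 62.2 FPKM against 56.4 FPKM.

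Cell cycle genes had 10 members, against 7 in the primary growth list, though 8 of the 10 had a lower FPKM in pre-vitellogenic follicles. The whole list of 164 genes held 2.38% of the pre-vitellogenic and 2.53% of the primary growth sum. The cyclin B genes, partners of the kinase that drives meiotic maturation, were ccnb2 with 725 FPKM in pre-vitellogenic and 1055 FPKM in primary growth follicles, and ccnb1 with 683 FPKM and 1775 FPKM. The germ-line cyclin gene ccna1 had 634 FPKM against 1289 FPKM. plk1, a kinase of mitotic and meiotic entry, had 670 FPKM against 494 FPKM and entered from rank 235. cdc25, now cdc25b, a phosphatase that activates the cyclin-dependent kinase, had 379 FPKM against 189 FPKM and was the only one of the 10 at least 2-fold higher, at the mark itself. ccna2 and ccne1 also entered, with 484 FPKM against 533 FPKM and 375 FPKM against 418 FPKM. In all, 1 of the 10 was higher, 2 lower (ccnb1 and ccna1) and 7 between the marks. Outside this list tpx2, a spindle assembly factor, entered from rank 410 with 388 FPKM against 276 FPKM.

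Genes of chromatin were 9 of the 200. nasp, a histone chaperone, was the most abundant nuclear gene without a clone name, with 1697 FPKM in pre-vitellogenic and 2402 FPKM in primary growth follicles. h3f3a, a histone H3.3 name that covers 2 gene IDs, had 1202 FPKM against 2425 FPKM, and the H2A.Z gene h2afva had 729 FPKM against 1292 FPKM. h1m had 691 FPKM against 2338 FPKM and was, with h3f3a, the only one at least 2-fold lower. hmga1a and anp32b entered the list, with 488 FPKM against 578 FPKM and 390 FPKM against 493 FPKM. zgc:158856, now slbp2, an oocyte protein that binds the stem-loop of histone mRNA, had 681 FPKM against 1761 FPKM. npm2b, the nucleoplasmin that stores histones in the egg, had left the list, with 238 FPKM in pre-vitellogenic and 980 FPKM in primary growth follicles.

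Cytosolic ribosomal protein genes were the largest list by number, 19 of the 200 against 33 of the primary growth list, and none of the 19 was new. All 19 were lower in pre-vitellogenic follicles, 14 by at least 2-fold, with a median difference of -1.20. Of all 189 nuclear members 172 were lower, 99 by at least 2-fold, with a median of -1.01. Of all genes compared 6.53% were 2-fold lower. The direction of the 19 ribosomal protein genes was thus that of most nuclear members. Whether the 19 were lower by more than these was not tested. These 19 held 1.35% of the pre-vitellogenic and 2.66% of the primary growth sum, and the whole list of 96 genes held 3.53% against 6.66%. rps14 was the highest, with 626 FPKM in pre-vitellogenic and 1227 FPKM in primary growth follicles. rpl15 had 533 FPKM against 1157 FPKM and rpl19 had 524 FPKM against 1700 FPKM. The largest ratio was that of rpl12, 417 FPKM against 1485 FPKM. With both libraries set to the same sum, 6 of the 19 stayed past the 2-fold mark and all 19 stayed lower. Ribosomal protein genes have near-identical pseudogene copies in many genomes, and no source used here says how reads were shared among copies.

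The 5 translation factor members were led by eef1a1l1, the elongation factor that brings tRNA to the ribosome, with 811 FPKM in pre-vitellogenic and 1499 FPKM in primary growth follicles. eif4a1a, an RNA helicase of initiation, entered the list with 472 FPKM against 448 FPKM. EIF1B, eif5a2 and tpt1, a translationally controlled protein on this list, were each at least 2-fold lower, with 541 FPKM against 1116 FPKM, 489 FPKM against 1009 FPKM and 482 FPKM against 1096 FPKM.

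**Figure D4:**
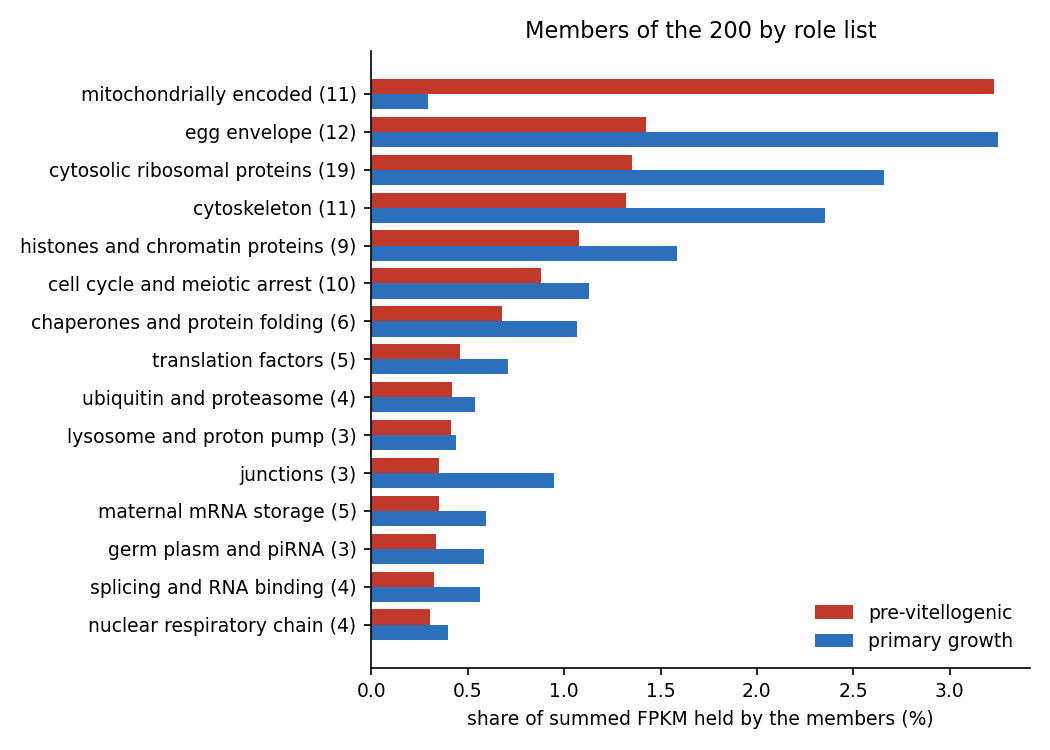
Share of the summed FPKM held by the members of each role list with at least 3 members (number in brackets), red for pre-vitellogenic and blue for primary growth follicles. Among members, the mitochondrially encoded genes are the only list shown with a larger pre-vitellogenic share, 3.23% against 0.294%, while over whole lists the shares of the ubiquitin and proteasome and of the lysosome and proton pump genes were larger too.

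Chaperone genes were 6 of the 200, led by hsp90ab1 with 1212 FPKM in pre-vitellogenic and 2571 FPKM in primary growth follicles and by hspa8 with 1096 FPKM and 2026 FPKM. The endoplasmic reticulum chaperones hspa5, hsp90b1 and pdia4 were between the marks, and pdia4 entered the list with 422 FPKM against 540 FPKM. Of the ubiquitin genes uchl1, a deubiquitinase, had 985 FPKM against 2320 FPKM, while ube2d2, a conjugating enzyme, entered with 747 FPKM against 402 FPKM. ubc, a polyubiquitin gene, had 447 FPKM against 757 FPKM. ube2c, the conjugating enzyme of the anaphase-promoting complex, entered with 377 FPKM against 469 FPKM. The 4 members held 0.420% of the pre-vitellogenic and 0.541% of the primary growth sum, but the whole list of 463 genes ran the other way, with 2.72% against 2.29%.

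Cytoskeletal genes were 11 of the 200, of which 5 were at least 2-fold lower and 6 between the marks. The 5 include map1lc3c, placed on this list by its name alone, with 715 FPKM in pre-vitellogenic and 1767 FPKM in primary growth follicles. The most abundant was si:dkey-167i21.2, now tmsb5, of the actin-binding thymosin beta family, with 1088 FPKM in pre-vitellogenic and 4208 FPKM in primary growth follicles. tubb4b, a beta tubulin name of 3 gene IDs, had 1049 FPKM against 2126 FPKM. The beta actin genes actb1 and actb2 had 999 FPKM against 2359 FPKM and 854 FPKM against 1438 FPKM. cfl1l, of the actin-severing cofilin family, entered with 575 FPKM against 529 FPKM. The junction genes cldnd, epcam and cldng were all at least 2-fold lower, and cldnd, a claudin, had 909 FPKM against 3445 FPKM.

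The 3 lysosomal members were between the 2-fold marks. ctsla, cathepsin L, had 978 FPKM in pre-vitellogenic and 924 FPKM in primary growth follicles, and cathepsins process yolk proteins in fish oocytes. ctsba, cathepsin B, had 808 FPKM against 1289 FPKM, and lamp2, a lysosomal membrane protein, had 733 FPKM against 986 FPKM. These 3 held 0.414% of the pre-vitellogenic and 0.438% of the primary growth sum, and the whole list of 61 genes held 0.834% against 0.771%. The RNA-binding members hnrnpabb, hnrnpa0l and hnrnpaba were between the marks, and hnrnpaba entered with 353 FPKM against 265 FPKM. The name ddx41 had 719 FPKM against 2683 FPKM, but most of it came from a second gene ID on chromosome 9 whose symbol is now si:ch1073-75o15.3, so this value is not that of the helicase gene.

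Some lists had 1 or 2 members. gapdh, the glycolytic enzyme, had 1198 FPKM in pre-vitellogenic and 2984 FPKM in primary growth follicles. The ferritin genes fth1a and zgc:92066 (now fthl27) had 407 FPKM against 814 FPKM and 364 FPKM against 1047 FPKM. The mitochondrial carrier genes slc25a5, the ADP/ATP translocase, and slc25a25a had 546 FPKM against 940 FPKM and 369 FPKM against 267 FPKM. oaz1a, antizyme of polyamine synthesis, had 543 FPKM against 579 FPKM and entered from rank 202. elovl7b, a fatty acid elongase, had 684 FPKM against 607 FPKM. sec61b of the protein translocation channel and tmed2, a cargo receptor, had 492 FPKM against 1096 FPKM and 369 FPKM against 477 FPKM. No gene of the lectin, steroid synthesis or signalling lists was a member.

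By their selection the nuclear genes that entered the list could be lower only by a factor under 1.68, the ratio of the rank-200 levels. None of these genes could thus be 2-fold lower, and their differences are a description only. Their 33 differences ran from -0.51 to 1.51 with a median of -0.09, which was 0.17 with both libraries set to the same sum and -0.51 with differences centred on the median of all genes. The 3 that were at least 2-fold higher, where 29.1% of the 14480 genes compared were, were pnrc2, fam46c and cdc25. pnrc2, which takes part in mRNA decay and in nuclear receptor signalling, had 1170 FPKM in pre-vitellogenic and 411 FPKM in primary growth follicles and ranked 25 and 286. fam46c, now tent5c, a non-canonical poly(A) polymerase, had 480 FPKM against 227 FPKM. When centred, only pnrc2 was still past the mark, with a difference of 1.09, while fam46c had 0.66 and cdc25 had 0.58. Of the 156 nuclear members shared with the primary growth list none was 2-fold higher and 99 were 2-fold lower. Of all genes compared 29.1% were higher and 6.53% lower. The shared members had to reach 587 FPKM in primary growth follicles, so these counts too are a description only.

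The 43 genes of the primary growth list that were not among the 200 had by their selection to be lower, by a factor of at least 1.68, the ratio of the rank-200 levels, so their differences are a description only. 34 of them stood within the first 400 ranks of pre-vitellogenic follicles. The gene farthest down was dynll1, a dynein light chain, with 55.2 FPKM at rank 2430 in pre-vitellogenic and 690 FPKM at rank 172 in primary growth follicles. zgc:173544 followed with 130.5 FPKM against 650 FPKM, and rps29 and rps19 had 231 FPKM against 587 FPKM and 235 FPKM against 591 FPKM.

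50 of the 200 carry clone or scaffold names, and 24 of them were among the first 50. 4 of the 50 are on a role list: zgc:171779, si:dkey-167i21.2, si:ch211-14a17.7 and zgc:92066. Of these si:ch211-14a17.7 was counted above among the egg envelope genes but not named, and the others were described with their lists. The other 46 are on none, and among these only zgc:158856 has had a role given above. The 50 held 7.995% of the pre-vitellogenic and 16.7% of the primary growth sum, and 36 of the 50 were at least 2-fold lower, none higher. Of the 139 other nuclear members 63 were lower and 3 higher at this mark. Over all genes compared 6.53% were lower and 29.1% higher. The most abundant nuclear gene of all was zgc:165539 on chromosome 10, from 21623130 to 21626322, with 2216 FPKM in pre-vitellogenic and 4254 FPKM in primary growth follicles. zgc:173556 on chromosome 17, the first gene of primary growth, had 2014 FPKM against 5761 FPKM. si:ch211-226h8.4 on chromosome 22 had 1983 FPKM against 4761 FPKM and zgc:171781 had 1701 FPKM against 5719 FPKM. zgc:173770 on chromosome 4 had 1731 FPKM against 2794 FPKM. mid1ip1l, whose product organises the cytoskeleton of the zebrafish egg, was among the first 20 with 1289 FPKM against 3092 FPKM, next to QDPR (6 of 6), now qdprb.4, with 1290 FPKM against 2801 FPKM.

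Many of these genes lie together in the genome (Zv9). Of the 189 nuclear members, 58 (30.7%) lay within 100 kb of another member, and in the next block of 200 ranks 13.5% did. 8 groups of at least 3 neighbours held 32 members. The largest was on chromosome 24, from 9777358 to 9831484, where 7 genes summed to 6867 FPKM in pre-vitellogenic and 15814 FPKM in primary growth follicles. Its genes were close in level, between 798 FPKM and 1102 FPKM in pre-vitellogenic follicles. On chromosome 9, from 8331690 to 8453901, 5 genes summed to 3560 FPKM against 12417 FPKM and all 5 were at least 2-fold lower. On chromosome 22, from 25807790 to 25934871, 4 genes summed to 4279 FPKM against 13848 FPKM. There the annotated span of si:ch211-226h8.14, from 25807790 to 25934801, contains or overlaps the others of the group. The 4 genes on chromosome 21, from 42036216 to 42072198, summed to 4247 FPKM against 7238 FPKM, and none of them was 2-fold lower. The same held for 3 genes on chromosome 4, from 61124002 to 61150493, with 2480 FPKM against 3946 FPKM. The 3 on chromosome 10, from 19598885 to 19627994, summed to 4966 FPKM against 10916 FPKM. The pairs zp3a.1 with zp3a.2 and zp2.2 with zp2.5 on chromosome 20 also lay within 100 kb of each other. On chromosome 17 zp3.2 lay inside the annotated span of zgc:173556. Such overlapping annotations are counted as neighbours here. Likeness in sequence between neighbours was not tested, and where neighbours are near-identical the split of reads within a group is uncertain.

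**Figure D5:**
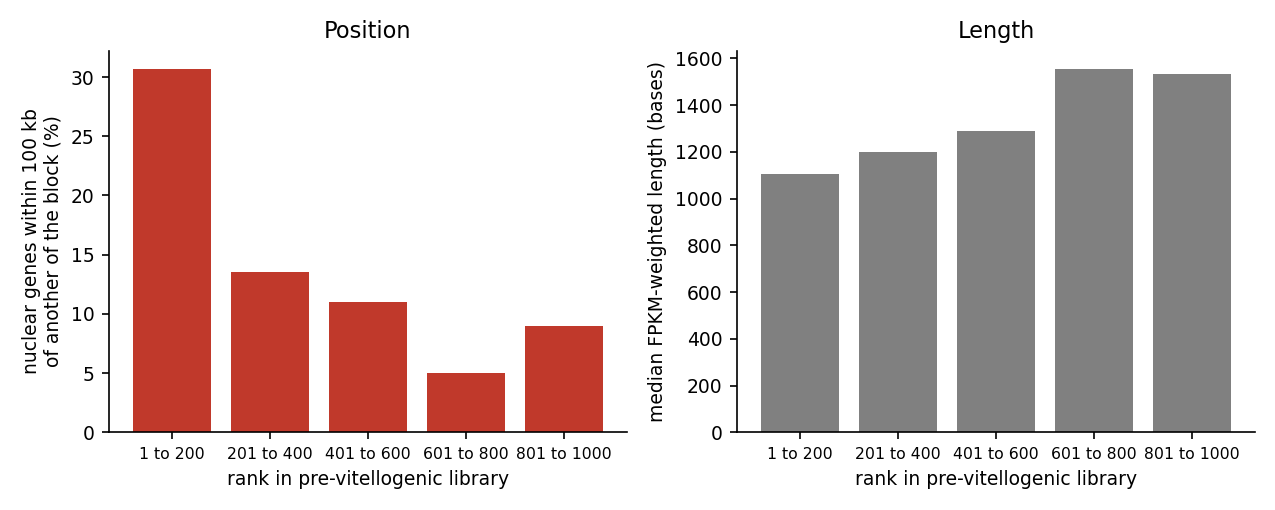
Share of nuclear genes with another gene of the same block of 200 ranks within 100 kb (left) and median FPKM-weighted length in bases (right), for the first 5 blocks of the pre-vitellogenic ranking. The first block, the 200 members, has 30.7% with a near neighbour and a median length of 1105 bases, and the second has 13.5% and 1202 bases.

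The members' transcripts were shorter at the median than those of all genes. Their FPKM-weighted lengths ran from 351 bases for mt-nd3 to 6080 bases for CU467646.1, with a median of 1105 bases, against 1803 bases for all protein-coding genes at 1 FPKM or more. Other nuclear members, those with no neighbour within 100 kb, held 13.3% of the pre-vitellogenic and 22.1% of the primary growth sum, while the 58 with one held 7.90% and 16.0%. The members just inside the limit were acadm with 351 FPKM, bzw1b with 350.2 FPKM and CU467646.1 with 349 FPKM in pre-vitellogenic follicles. Just outside stood psap, a precursor of lysosomal saposins, with 347 FPKM, gstp1, a glutathione transferase, with 346.5 FPKM and HABP4 with 343 FPKM.

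The table gives bounds for each transcript, and they were wide. For 83 of the 200 genes the lower bound of the most abundant transcript was 0 in pre-vitellogenic follicles. Ranked by the lower bound, the first 200 genes shared 90 with the list described here. For 4 members the bounds of that transcript did not overlap between the stages: zgc:171781, zp3.2, BX548000.1 and zp3a.1, the last because its primary growth bounds are those of a failed estimate. The same count was not made over all genes, so whether the 200 differ in it from other genes is not known.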

How the data were processed

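Follicles were sorted by size and morphology and sequenced as 1 paired-end mRNA and 1 single-end small RNA library per stage, per the labels' protocols. The deposited mRNA values are FPKM per transcript with bounds and a status mark. TopHat2 2.0.11 and Cufflinks 2.2.1 and the build Zv9 are listed, without steps, in the submitters' processing notes. The deposited small RNA header says RPKM, but all values above 0 were whole multiples of 1 step per library within 0.01 steps, so they were read as RPM and turned into reads. The sources used here do not say how small RNA was counted.

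Transcripts were summed by name, and 779 gene IDs without one were kept apart. Transcript length was taken from the authors' deposited length column, in bases. Shares are of the summed FPKM or of listed reads. Differences are pre-vitellogenic minus primary growth on the log2 scale of deposited values plus 1 FPKM or 10 RPM, with calls at 2-fold for features at 1 FPKM or 100 RPM in the higher library. A true count of 0 allows up to 3 reads, which is 0.158 RPM in pre-vitellogenic and 0.228 RPM in primary growth follicles. The smallest listed value above 0 was 6 reads in both libraries. Whether smaller counts were listed as 0 is not known, so this limit may be too low. Intervals are at the 95% level and cover counting error only. 173 members matched a table of current symbols by gene ID.

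The members, the 26 role lists and the marker lists were chosen with earlier results of these data known. Named genes were the 20 most abundant, the most abundant and most different of those outside the primary growth list, up to 4 per list, and those at the limits. vasa, bmp15, gdf9, tpx2, zgc:158856, further list members and members of neighbour groups were named after their values were seen. On simulated data of 17894 genes all 200 top genes and all 20 changed genes were recovered, with 0 unchanged genes called. The simulated top genes were set above all others and unchanged genes were made equal in both libraries, with no noise. It therefore checks the calculation only and says nothing about error in the real libraries. Tools were Python 3.11.15, pandas 2.3.3, numpy 2.4.6, scipy 1.17.1 and matplotlib 3.10.9.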

Additional observations from a re-analysis of the deposited data

How the results depend on the processing

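No paired analysis was possible because each stage had 1 library of each kind, and for the same reason no library could be left out. The share of the 200 genes, 24.5%, was 24.3% by gene ID, 27.3% with no length floor, 23.9% with a floor of 500 bases, 15.1% when ranked by the lower bound, 23.2% with mitochondrially encoded genes left out, 17.4% for 100 genes, 26.3% of protein-coding FPKM, and 24.6% without unnamed transcripts, a setting added after seeing the data. The 43 genes outside the primary growth list were 75 by the lower bound, 23 for 100 genes and 17 against its first 400. The 14 higher genes were 9 by the lower bound and 3 without mitochondrially encoded genes. The 99 lower genes were 60 by the lower bound, 60 for 100 genes and 58 with equal sums. For miRNAs the share of 93.1% was 80.01% for 10 miRNAs, 91.8% without miR-22a-3p and 2.97% of the library total. The 3 outside the primary growth 20 became 1 against its first 30. The 18 higher were 9 of 10 miRNAs, 6 with equal sums and 6 when centred, and the 0 lower became 4 under both of these scalings. Among the 18, with equal sums the log2 difference turned to -0.86 for miR-100-5p, -0.14 for miR-99, -1.04 for miR-26a-5p, -0.25 for miR-146a, -1.11 for miR-92a-3p, -0.54 for miR-125b-5p and -0.27 for miR-101a. When centred it was -0.80, -0.13, -1.05, -0.27, -1.13, -0.81 and -0.54 for the same miRNAs and -0.13 for miR-146b. Outside the 18, miR-20a-5p turned from 0.68 to -2.02 with equal sums and -2.02 when centred. miR-9-5p turned from 0.55 to -1.96 and -2.15. No called gene reversed, while 41 of 113 lost the 2-fold mark with equal sums. The causes were not tested.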

Other observations

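18 genes stood above the rank-200 level of pre-vitellogenic follicles but were left out by the rule, 9 for a length under 300 bases and 9 for no protein-coding transcript. Together they held 4.56% of the pre-vitellogenic and 2.70% of the primary growth sum. mt-atp8, a small ATP synthase subunit of 165 bases, had 10847 FPKM in pre-vitellogenic and 1151 FPKM in primary growth follicles, and mt-nd4l, of 297 bases, had 4570 FPKM and 401 FPKM. Their bounds began at 0 in both libraries. The entries AC024175.4, at positions 2043 to 3725 of the mitochondrial DNA, AC024175.17, at 1020 to 1971, and 5_8S_rRNA were among the 9 not marked protein-coding. Metazoa_SRP, the RNA of the signal recognition particle, had 353 FPKM against 2259 FPKM. si:ch1073-228p2.2, of 153 bases, had 1315 FPKM against 3638 FPKM, also with bounds from 0 in both libraries. These genes were named after their values were seen.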
